A study of Mus musculus with 9 samples.

Results

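The amino acid transporters of liver described here were 7 genes for carriers of the cell surface or their heavy chains: Slc38a2, Slc38a4, Slc38a3, Slc7a2, Slc3a1, Slc3a2 and Slc43a1. They were chosen by name, as plasma membrane amino acid transporters known to be expressed in liver, with earlier results of these data known. All 7 were found among the 23440 genes compared. All 7 also passed the filter on low values (1 TPM or more in at least 3 libraries), which left 10161 genes to test. Liver RNA of C57Bl6 mice was sequenced in 9 libraries of 3 groups, 3 libraries each. The first group came from mice of 20 to 22 months whose chow held PD-0332991 for 2 weeks, at an amount the labels write as 450 mg/k. PD-0332991, also known as palbociclib, inhibits the cell cycle kinases CDK4 and CDK6. The second group came from untreated mice of 20 to 22 months (aged), and the third from untreated mice of 2 months (young). The series asks what Cdk4 does in the fatty liver of old age, and no young group on the drug was analysed here. The labels name no genetic change. They do not give the sex of the mice and do not say if each library is a different mouse, so the p-values below measure the spread between these libraries.

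Hepatocytes take up amino acids from portal blood for protein synthesis, glucose production and the urea cycle, and release glutamine. Sodium-coupled carriers of the SLC38 family do much of this work. System A carriers take up small neutral amino acids such as alanine, and the gene of the widely expressed one, Slc38a2, is a classical target of the cell's response to amino acid shortage. System N carriers exchange glutamine, asparagine and histidine in either direction. Other carriers work without sodium: cationic amino acid transporters bring in arginine and lysine, and heteromeric transporters pair a heavy chain of the SLC3 family, which brings the complex to the membrane, with a light chain of the SLC7 family, which carries the amino acid.

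Of the 7 genes, Slc38a2 and Slc3a1 passed the test in at least 1 comparison. Slc38a2 was lower in aged than in young livers and higher in PD-0332991 livers than in aged ones. Slc3a1 was 2.45-fold higher in aged than in young livers and did not differ detectably between PD-0332991 and aged livers. The promoter windows of these 2 genes, taken from RefSeq (build GRCm38.p6) and running from 250 bases before the transcription start to 50 after it, are shown because these are the genes that changed. The Slc38a2 window is chr15:96699679-96699978 on the minus strand, and the Slc3a1 window is chr17:85028097-85028396 on the plus strand. Both are written 5′ to 3′ along the gene, with matches to a motif searched on both strands in capitals.
Slc38a2: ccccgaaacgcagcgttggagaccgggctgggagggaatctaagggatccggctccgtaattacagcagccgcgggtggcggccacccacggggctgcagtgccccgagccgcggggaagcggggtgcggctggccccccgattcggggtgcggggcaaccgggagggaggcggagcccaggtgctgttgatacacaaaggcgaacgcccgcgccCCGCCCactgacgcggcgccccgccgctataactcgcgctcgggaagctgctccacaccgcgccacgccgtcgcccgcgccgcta
Slc3a1: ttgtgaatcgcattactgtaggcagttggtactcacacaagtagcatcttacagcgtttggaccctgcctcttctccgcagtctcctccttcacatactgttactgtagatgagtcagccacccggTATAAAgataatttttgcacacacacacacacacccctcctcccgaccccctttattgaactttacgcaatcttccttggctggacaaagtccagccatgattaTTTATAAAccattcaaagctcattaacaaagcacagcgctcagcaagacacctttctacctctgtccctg
The capitals in Slc38a2 mark its 1 match, a GC box (GGGCGG, here on the opposite strand, at positions -35 to -30 where 0 is the start). The capitals in Slc3a1 mark TATA boxes (TATAAA), at positions -124 to -119 and, overlapping each other on opposite strands, at -20 to -15 and -18 to -13. The Slc38a2 window had a G and C content of 73.0% and 41 CpG dinucleotides, the Slc3a1 window 46.3% and 7, and the median over all 32851 windows of the RefSeq table was 52.7% and 7. A GC box was present in 35.66% of all windows and a TATA box in 13.62%. Of the other motifs searched, CCAAT (in 37.41% of all windows), the E-box CACGTG (7.15%), the composite C/EBP-ATF element TGATGNAA (3.97%) and the E2F element TTTNGCGC (1.38%) had no match in either window. Such matches are descriptions of the letters, not shown binding sites. Sequence outside these windows of 300 bases was not searched, so a motif missing here may lie elsewhere in or near the gene. Windows were found for 5 of the 7 genes, not for Slc38a3 and Slc7a2.

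Levels below are TPM, a relative transcript abundance that accounts for transcript length. Different genes are set beside each other as listed values only. The annotation and the summing of transcripts per gene are unknown, and Alb, the albumin gene, was listed at 0 in all 9 libraries. A row can therefore miss part of the RNA of its gene. Slc38a3 and Slc38a4 made up most of the summed TPM of the 7 genes in every library. Slc38a3 held 57.5% of it on average in PD-0332991 livers, 58.3% in aged livers and 58.5% in young livers, and Slc38a4 held 23.8%, 23.7% and 27.5% in the same groups. The order of the mean levels differed between the groups in the middle of the range only. In PD-0332991 livers it was Slc38a3, Slc38a4, Slc3a1, Slc7a2, Slc38a2, Slc3a2 and Slc43a1, where the ranges of Slc3a1 and Slc7a2 overlapped. In aged livers Slc3a2 stood before Slc38a2, and both that pair and the pair of Slc3a1 and Slc7a2 had overlapping ranges. In young livers Slc3a1 stood lower, in the order Slc38a3, Slc38a4, Slc7a2, Slc38a2, Slc3a1, Slc3a2 and Slc43a1, with overlapping ranges for Slc38a2 and Slc3a1. All other neighbours in these orders had ranges that did not overlap, and the orders were unchanged when any 1 library was left out.

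**Figure D1:**
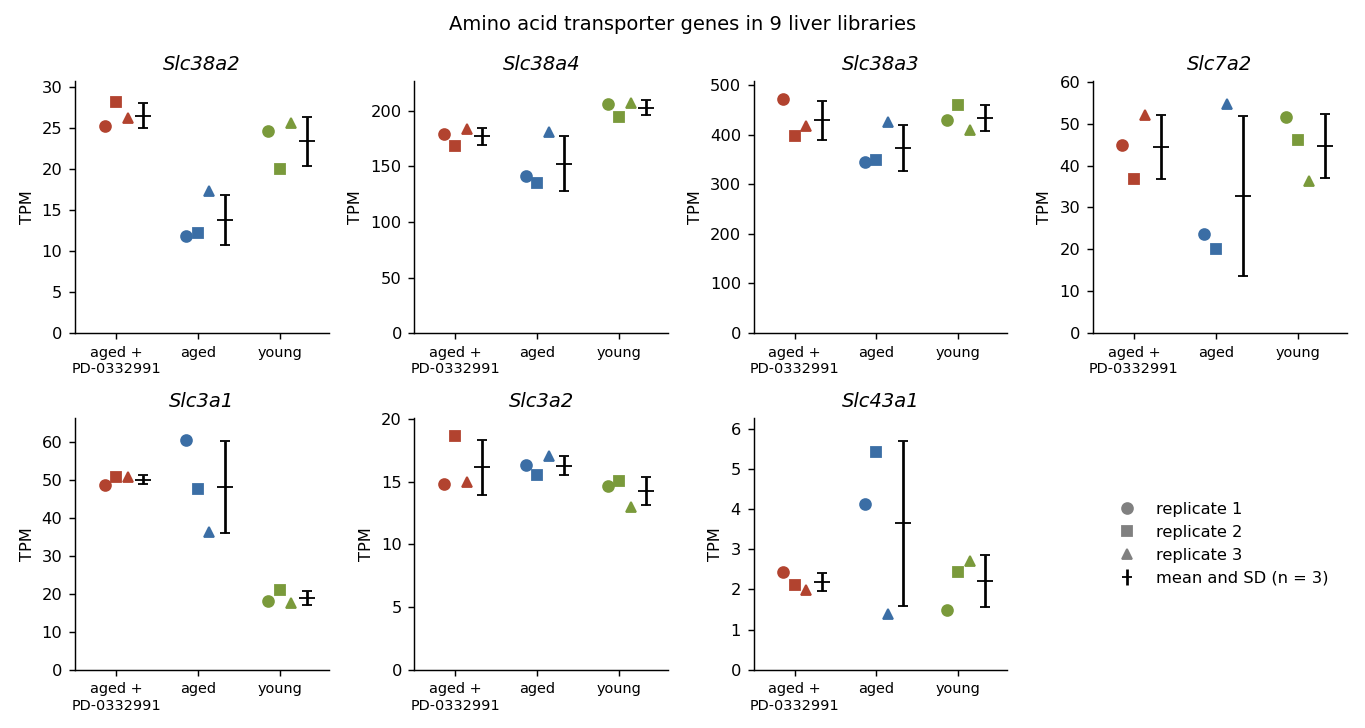
TPM of the 7 genes (vertical axes, each starting at 0) in the 3 groups, with 1 marker per library and the mean and SD of the 3 libraries beside them. Slc38a2 is lowest in the 3 aged livers, Slc3a1 is lowest in the 3 young livers, and the aged libraries lie far apart for Slc7a2 and Slc43a1.

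In the comparison of PD-0332991 with aged livers, 1 of the 7 genes was higher (Slc38a2), 0 were lower and 6 did not pass (limma on log2(TPM + 0.5), Benjamini-Hochberg adjusted p under 0.05). Over all genes tested, 0.61% were called higher and 0.837% lower. The PD-0332991 libraries lay entirely above the aged ones for 1 gene, Slc38a2 (all genes 5.72%), and entirely below them for 0 genes (all genes 16.7%). In aged against young livers, 1 of the 7 was called higher (Slc3a1, against 0.65% of all genes) and 1 lower (Slc38a2, against 0.453%). Aged libraries lay entirely above young ones for 2 genes, Slc3a1 and Slc3a2 (all genes 8.82%), and entirely below them for 2, Slc38a2 and Slc38a4 (all genes 9.57%). In PD-0332991 against young livers, 1 was called higher (Slc3a1, against 2.59% of all genes) and 0 lower (against 4.29%). There the groups did not overlap for Slc3a1, which was higher (all genes 9.55%), and for Slc38a4, which was lower (all genes 24.4%). With 7 genes these counts are small, and no test of the group of genes was made. The 7 genes were chosen with earlier results of these data known, so the shares of all genes cannot show an excess among them. The median log2 fold change of the 7 genes was 0.20 in PD-0332991 against aged livers, -0.22 in aged against young livers and 0.01 in PD-0332991 against young livers, beside -0.09, -0.01 and -0.10 over all genes tested.

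**Figure D2:**
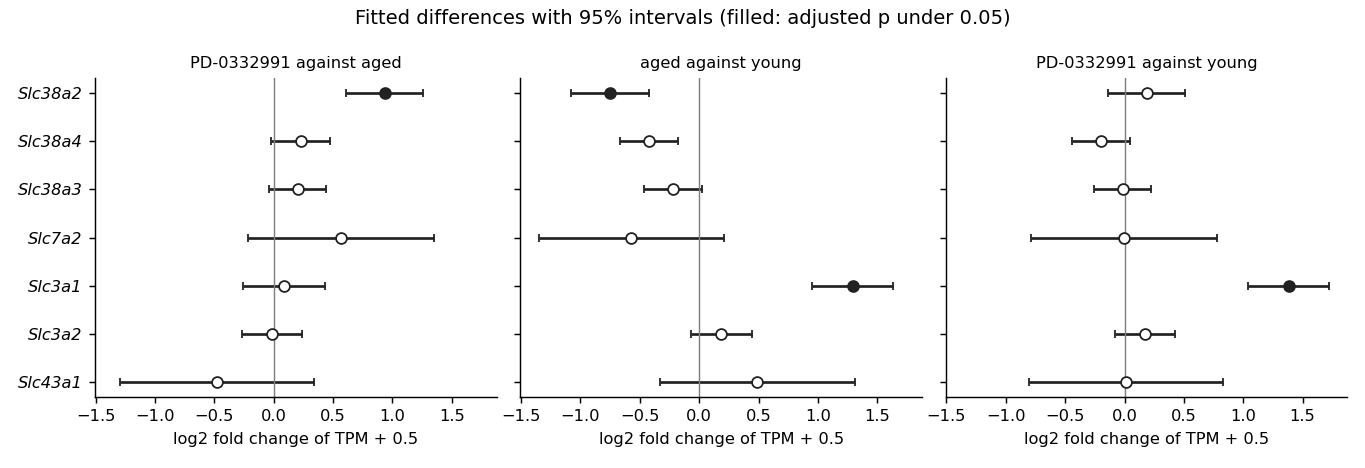
Fitted log2 fold change of TPM + 0.5 (horizontal axes) of the 7 genes in the 3 comparisons, with 95% intervals and filled points where the limma adjusted p was under 0.05. Slc38a2 is filled on the positive side in PD-0332991 against aged livers and on the negative side in aged against young livers, and Slc3a1 is filled at 1.29 and 1.38 in both comparisons with young livers.

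Slc38a2 encodes SNAT2, the inducible system A carrier (chr15:96687392-96699730, minus strand of GRCm38, whose promoter is shown above). Its TPM was 25.2, 28.1 and 26.2 in the 3 PD-0332991 livers, 11.9, 12.2 and 17.3 in the aged livers, and 24.6, 20.0 and 25.5 in the young livers. Every aged library lay below the other 6, and aged replicate 3 was the highest of its group. PD-0332991 livers averaged 26.5 ± 1.48 TPM, aged livers 13.8 ± 3.05 and young livers 23.4 ± 2.99 (SD, n = 3 each, as throughout). The log2 fold change of PD-0332991 against aged livers was 0.94 ± 0.15 (SE), which is 1.91-fold with a 95% interval of 1.53 to 2.40 (limma adjusted p = 0.0161). Against young livers, aged livers fell by 0.75 ± 0.15 on the log2 scale (limma adjusted p = 0.0399). PD-0332991 and young livers had overlapping values, with a log2 difference of 0.19 and an interval from -0.14 to 0.51 (limma adjusted p = 0.472). The age and drug comparisons share the aged libraries, so their opposite signs are not separate results. Both calls were close to the threshold. The drug call was kept without PD-0332991 replicate 1, aged replicate 1 or 3, or any 1 young library, but its adjusted p was 0.0739 without PD-0332991 replicate 2, 0.0652 without PD-0332991 replicate 3 and 0.0519 without aged replicate 2. The age call was kept without aged replicate 3 (adjusted p = 0.00181) and lost without any other 1 library (adjusted p from 0.058 to 0.17), while its log2 fold change stayed between -0.92 and -0.66.

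Slc38a4 encodes SNAT4, the system A carrier that is most characteristic of hepatocytes. It is known as an imprinted gene in mice, but TPM does not tell alleles apart, so imprinting in these livers was not examined. It lies on the same strand of chromosome 15 as Slc38a2 (chr15:96994820-97055956), with 295089 bases between them. Its TPM was 179, 169 and 184 in PD-0332991 livers, 141, 135 and 181 in aged livers, and 206, 195 and 208 in young livers. All 3 young libraries lay above the other 6, and aged replicate 3 lay within the PD-0332991 range. The means were 177 ± 7.76, 153 ± 24.5 and 203 ± 6.99 TPM in PD-0332991, aged and young livers. None of the comparisons passed: the log2 fold change was 0.23 in PD-0332991 against aged livers (limma adjusted p = 0.309), -0.42 in aged against young livers (interval -0.67 to -0.18, adjusted p = 0.102) and -0.20 in PD-0332991 against young livers (adjusted p = 0.302). Without aged replicate 3 the age difference was -0.55 with an adjusted p of 0.0063, while calls over all genes rose from 112 to 696.

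The 2 system A genes moved by different amounts within a library. The ratio of Slc38a2 to Slc38a4 TPM, which does not depend on how a library was scaled, was 0.141 to 0.167 in PD-0332991 livers, 0.0839 to 0.0959 in aged livers and 0.102 to 0.123 in young livers. The 3 groups did not overlap, with the drug-treated livers highest and the aged livers lowest. Aged replicate 3, which was high for both genes, had a ratio of 0.0959 beside 0.0839 and 0.0903 in the other aged libraries. The ratios were chosen after the values were seen and are given without a test.

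Slc38a3 encodes SNAT3, the system N glutamine carrier of hepatocytes (chr9:107650634-107669530, minus strand), and had the highest TPM of the 7 genes. Its TPM was 472, 397 and 417 in PD-0332991 livers, 344, 349 and 427 in aged livers, and 430, 461 and 409 in young livers. The groups overlapped in all 3 comparisons, and aged replicate 3 lay among the treated and young libraries. The means were 429 ± 39.1 TPM in PD-0332991 livers, 373 ± 46.3 in aged livers and 433 ± 26.1 in young livers. The log2 difference was 0.20 in PD-0332991 against aged livers (interval -0.04 to 0.44, limma adjusted p = 0.352) and -0.22 in aged against young livers (interval -0.46 to 0.02, adjusted p = 0.382). Between PD-0332991 and young livers it was -0.02, with an interval from -0.26 to 0.22, and its sign changed with the scaling. The ratio of Slc38a3 to Slc38a4 was 2.27 to 2.64 in PD-0332991 livers, 2.36 to 2.58 in aged livers and 1.97 to 2.36 in young livers. The aged range lay within the PD-0332991 range, and the highest young library reached the lowest aged one.

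**Figure D3:**
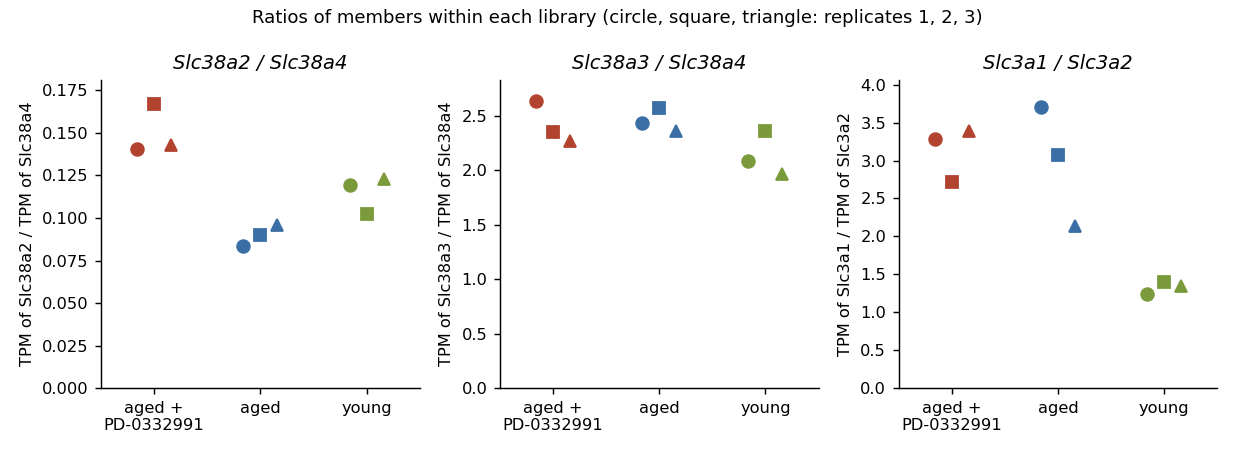
Ratio of the TPM of 2 genes within each library (vertical axes, starting at 0) in the 3 groups, for Slc38a2 over Slc38a4, Slc38a3 over Slc38a4 and Slc3a1 over Slc3a2. The first ratio separates all 3 groups, with PD-0332991 livers highest, and the last separates the young livers at 1.24 to 1.40 from all others.

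Slc7a2 encodes the cationic amino acid transporter CAT2, which takes up arginine, lysine and ornithine (chr8:40862396-40922308, plus strand). Its TPM was 44.9, 36.7 and 52.0 in PD-0332991 livers, 23.6, 20.0 and 54.7 in aged livers, and 51.5, 46.2 and 36.4 in young livers. Aged replicates 1 and 2 were the lowest of all 9 libraries and aged replicate 3 the highest, so the aged group spanned both others. The means were 44.5 ± 7.62, 32.8 ± 19.1 and 44.7 ± 7.67 TPM in PD-0332991, aged and young livers. The log2 fold change of 0.57 in PD-0332991 against aged livers had an interval from -0.22 to 1.35 (limma adjusted p = 0.419), and that of -0.57 in aged against young livers one from -1.35 to 0.21 (adjusted p = 0.482). The result rests on 1 library: without aged replicate 3 the drug difference was 1.002 (adjusted p = 0.0088) and the age difference -1.01 (adjusted p = 0.00621). New calls then appeared over all genes too, from 147 to 392 in the drug comparison and from 112 to 696 in the age comparison. PD-0332991 and young livers differed by 0.00 on the log2 scale, with an interval from -0.79 to 0.78, and the sign of this difference changed with the scaling.

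Slc43a1 encodes LAT3, a carrier of leucine and other large neutral amino acids that needs neither sodium nor a heavy chain (chr2:84838850-84863594, plus strand). It had the lowest TPM of the 7 genes, at 2.44, 2.12 and 2.00 in PD-0332991 livers, 4.12, 5.42 and 1.40 in aged livers, and 1.48, 2.44 and 2.72 in young livers. Aged replicates 1 and 2 were here the highest of all libraries and aged replicate 3 the lowest, the reverse of Slc7a2. The means were 2.19 ± 0.23 TPM in PD-0332991 livers, 3.65 ± 2.05 in aged livers and 2.21 ± 0.65 in young livers. The log2 fold change was -0.48 in PD-0332991 against aged livers (interval -1.30 to 0.34, limma adjusted p = 0.525) and 0.49 in aged against young livers (interval -0.33 to 1.31, adjusted p = 0.574). Without aged replicate 3 these were -0.97 (adjusted p = 0.0279) and 0.98 (adjusted p = 0.0171), with calls over all genes at 392 and 696. Over the 9 libraries Slc7a2 and Slc43a1 had the most negative correlation of any 2 of the 7 genes, a Pearson r of -0.943 on the log2 scale, and -0.932 for deviations from the group means. Both values include aged replicate 3 and are given as a description of libraries that share their normalization.

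The aged livers were also spread in other hepatocyte genes, chosen here after their values were seen. Tat, tyrosine aminotransferase, was at 703, 629 and 789 TPM in PD-0332991 livers, 418, 187 and 697 TPM in aged livers and 359, 310 and 426 TPM in young livers. Pck1, the gluconeogenic enzyme PEPCK, was at 866, 813 and 1067 TPM in PD-0332991 livers, 418, 235 and 797 TPM in aged livers and 434, 382 and 482 TPM in young livers. Within the aged group replicate 3 was highest for both genes, above every young library, replicate 2 was lowest, below every young library, and replicate 1 lay between them. Both genes are known to respond to fasting hormones and glucocorticoids. Whether what set these levels bears on the transporter genes was not tested.

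Slc3a1 encodes rBAT, a heavy chain known mainly from kidney and small intestine, where with its light chain it takes up cystine and cationic amino acids (chr17:85028376-85064236, plus strand, whose promoter is shown above). Its TPM was 48.7, 50.8 and 50.6 in PD-0332991 livers, 60.4, 47.5 and 36.3 in aged livers, and 18.2, 21.1 and 17.5 in young livers. All 6 libraries of older mice lay above all 3 young ones, and the aged values spread on both sides of the narrow PD-0332991 range. The means were 50.1 ± 1.17 TPM in PD-0332991 livers, 48.1 ± 12.1 in aged livers and 19.0 ± 1.89 in young livers. The log2 fold change of aged against young livers was 1.29 ± 0.16 (SE), 2.45-fold with an interval from 1.94 to 3.11 (limma adjusted p = 0.00473). PD-0332991 against young livers gave 1.38 ± 0.16, 2.61-fold with an interval from 2.06 to 3.30 (limma adjusted p = 0.00142). PD-0332991 and aged livers differed by 0.09 on the log2 scale, with an interval from -0.25 to 0.43 (limma adjusted p = 0.811). Both calls were kept under all 19 alternatives tried, with adjusted p up to 0.0338 and 0.0111. The 2 comparisons with young livers share the young libraries. Of the 2271 exon bases of Slc3a1, 601 also belong to Prepl on the opposite strand, and whether counting used the strand is not stated. Prepl was at 4.97, 4.80 and 4.91 TPM in PD-0332991 livers, 4.29, 5.27 and 3.56 TPM in aged livers, and 5.04, 4.32 and 4.16 TPM in young livers, so it was well below Slc3a1 and the groups overlapped. Slc7a2 likewise shares 635 of 9135 exon bases with Gm26584, a long noncoding RNA gene on the opposite strand that is not a row of the tables used here.

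Slc3a2 encodes 4F2hc (CD98), the heavy chain of most tissues (chr19:8706882-8723369, minus strand). Its TPM was 14.8, 18.7 and 14.9 in PD-0332991 livers, 16.3, 15.5 and 17.0 in aged livers, and 14.7, 15.1 and 13.0 in young livers. The aged libraries lay just above the young ones, and PD-0332991 libraries overlapped both groups. Means of 16.2 ± 2.19, 16.3 ± 0.758 and 14.2 ± 1.13 TPM in PD-0332991, aged and young livers gave log2 differences of -0.02 in PD-0332991 against aged livers (interval -0.27 to 0.24, with a sign that changed with the scaling), 0.19 in aged against young livers (interval -0.07 to 0.44, limma adjusted p = 0.482) and 0.17 in PD-0332991 against young livers (interval -0.08 to 0.42, adjusted p = 0.391). The ratio of Slc3a1 to Slc3a2 within a library was 2.72 to 3.39 in PD-0332991 livers, 2.14 to 3.71 in aged livers and 1.24 to 1.40 in young livers. Every library of an older mouse thus had more of the rBAT transcript relative to the 4F2hc transcript than any young one.

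Light chains, which these heavy chains need for transport, were scarce in the tables. Of 9 light chain genes, 7 were below 1 TPM in all libraries and 2 of these were listed at 0 throughout, including Slc7a9, the partner of rBAT in kidney. A gene listed at 0 is not shown to be silent here, since Alb, the albumin gene of hepatocytes, was also listed at 0 in all 9 libraries. Slc7a7, which pairs with 4F2hc to exchange cationic for neutral amino acids, was the 1 light chain gene tested, at a mean of 0.964 ± 0.113 TPM in PD-0332991 livers, 1.07 ± 0.0827 in aged livers and 1.33 ± 0.396 in young livers, and it was not called in any comparison.

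Among 32 other plasma membrane amino acid transporter genes, 23 were below 1 TPM in all libraries, 9 of them at 0 throughout, and 9 were tested. In PD-0332991 against aged livers 0 of these 9 passed, and in aged against young livers 1 was higher. In PD-0332991 against young livers 1 was higher and 2 were lower, where 2.59% of all genes were called higher and 4.29% lower. The median log2 fold changes over the 9 were -0.19, -0.07 and -0.26 in these comparisons, beside -0.09, -0.01 and -0.10 over all genes tested. Slc1a2, the glutamate carrier GLT-1 of hepatocytes around the central vein, averaged 24.7 ± 1.28 TPM in PD-0332991 livers, 24.0 ± 3.79 in aged livers and 14.1 ± 0.569 in young livers. Its log2 fold change was 0.74 in aged against young livers (limma adjusted p = 0.0162) and 0.79 in PD-0332991 against young livers (adjusted p = 0.0052). Like Slc3a1, it was thus higher in both groups of older mice. The genes lower in PD-0332991 than in young livers were Slc6a9, the glycine transporter GLYT1 (5.83 ± 0.85 TPM in PD-0332991 livers, 8.29 ± 0.371 in aged livers and 12.8 ± 1.94 in young livers, log2 fold change -1.07, limma adjusted p = 0.00244), and Slc6a6, the taurine transporter. Slc6a6 averaged 6.13 ± 0.824 TPM in PD-0332991 livers, 9.82 ± 2.13 in aged livers and 11.2 ± 1.63 in young livers (log2 fold change of PD-0332991 against young livers -0.82, limma adjusted p = 0.0158).

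Of 13 genes for lysosomal and other intracellular carriers, 9 were tested. Slc36a1, the lysosomal carrier PAT1 that exports small amino acids, was the 1 gene called, lower in PD-0332991 livers than in either other group. Of all genes, 0.837% were called lower against aged livers and 4.29% against young livers. The median log2 fold change over the 9 was 0.019 in PD-0332991 against aged livers (all genes -0.09). It was -0.155 in aged against young livers (all genes -0.012) and -0.173 in PD-0332991 against young livers (all genes -0.097). Slc36a1 averaged 3.63 ± 0.235 TPM in PD-0332991 livers, 6.19 ± 0.404 in aged livers and 6.62 ± 0.704 in young livers, a log2 fold change of -0.70 against aged livers (limma adjusted p = 0.0215) and -0.79 against young livers (adjusted p = 0.00603). Its levels in aged and young livers differed by -0.09 on the log2 scale (adjusted p = 0.796).

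**Figure D4:**
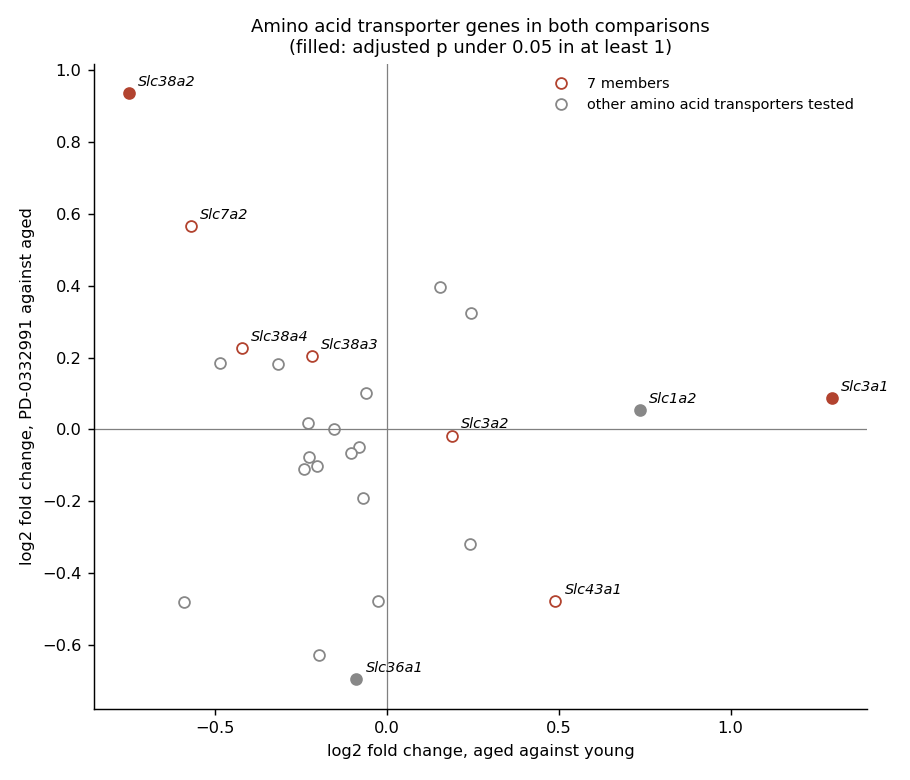
Log2 fold change of PD-0332991 against aged livers (vertical axis) beside that of aged against young livers (horizontal axis) for the 7 genes and the other amino acid transporter genes tested, filled where the limma adjusted p was under 0.05 in at least 1 of these comparisons. Slc38a2 is at the upper left, Slc3a1 and Slc1a2 lie to the right near 0 on the vertical axis and Slc36a1 is lowest; both axes use the aged libraries, with opposite sign.

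In the wider pathway most genes did not pass the test. The counts below stand beside the shares of all genes called higher and lower, which were 0.61% and 0.837% in PD-0332991 against aged livers, 0.65% and 0.453% in aged against young livers, and 2.59% and 4.29% in PD-0332991 against young livers. Of 30 tested genes of the ATF4 response to amino acid shortage, to which Slc38a2 is known to belong, 2 were higher and 1 lower in PD-0332991 than in aged livers, with a median log2 fold change of 0.04. The higher ones were Chac1, a glutathione-degrading enzyme, and Cebpb, a transcription factor. Chac1 averaged 3.83 ± 0.728 TPM in PD-0332991 livers, 0.879 ± 0.251 in aged livers and 2.30 ± 0.844 in young livers (PD-0332991 against aged, log2 fold change 1.65, limma adjusted p = 0.0156). Cebpb averaged 159 ± 27.3 TPM in PD-0332991 livers, 81.2 ± 9.15 in aged livers and 81.0 ± 8.53 in young livers (PD-0332991 against aged, log2 fold change 0.96, limma adjusted p = 0.0156). Atf4 itself was the lower one, at 66.0 ± 4.84 TPM in PD-0332991 livers, 92.8 ± 5.41 in aged livers and 85.3 ± 5.69 in young livers (PD-0332991 against aged, -0.49, limma adjusted p = 0.0336). Asns and Trib3, further genes of this response chosen here after their values were seen, did not pass. Asns averaged 3.76 ± 2.10 TPM in PD-0332991 livers, 4.02 ± 2.68 in aged livers and 3.56 ± 1.80 in young livers, and Trib3 averaged 3.74 ± 0.62, 2.68 ± 2.61 and 2.27 ± 0.685 TPM in the same groups. In aged against young livers 1 of the 30 was higher, Cth, which makes cysteine from cystathionine (log2 fold change 0.74, limma adjusted p = 0.0278), and 0 were lower, with a median of 0.06. In PD-0332991 against young livers 3 were higher (Cebpb, the eIF2α kinase gene Eif2ak3 and the alanyl-tRNA synthetase gene Aars) and 1 was lower (Atf4), with a median of 0.16.

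Of 23 tested genes of mTORC1 and amino acid sensing, 1 passed in any comparison. Flcn, folliculin, a regulator of the Rag GTPases, averaged 10.1 ± 1.55 TPM in PD-0332991 livers, 6.34 ± 0.882 in aged livers and 10.7 ± 1.35 in young livers, and was lower in aged than in young livers (log2 fold change -0.72, limma adjusted p = 0.0463). In PD-0332991 against aged livers its log2 fold change of 0.63 did not pass (adjusted p = 0.0608). Of 27 tested enzymes of glutamine, glutamate, arginine and branched-chain amino acid metabolism, 0 passed in PD-0332991 against aged livers and 0 in aged against young livers. In PD-0332991 against young livers, Oat, ornithine aminotransferase, and Got1, an aspartate aminotransferase, were higher (log2 fold changes 0.94 and 0.59, limma adjusted p = 0.00539 and 0.0394). Glud1, glutamate dehydrogenase, and Tdo2, the first enzyme of tryptophan breakdown, were lower there (-0.37 and -0.60, limma adjusted p = 0.0317 and 0.0368).

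Some genes outside these lists followed single transporter genes closely over the 9 libraries, by Pearson's r of log2(TPM + 0.5), given as a description. For Slc38a2 the closest were Ppara, the fatty acid-sensing nuclear receptor (r = 0.973), Rbm33 (0.955) and Fbxo34 (0.947). Ppara averaged 20.7 ± 1.43 TPM in PD-0332991 livers, 11.1 ± 2.29 in aged livers and 20.1 ± 0.989 in young livers. Its low aged level is of the kind that a choice by correlation with Slc38a2 favours. For Slc3a1 they were Trib1, a pseudokinase (0.973), Atp11a, a phospholipid flippase (0.972), and Serpine2, a secreted protease inhibitor (0.971). Serpine2 averaged 16.8 TPM in PD-0332991 livers, 15.9 in aged livers and 3.09 in young livers, and Atp11a averaged 5.77, 4.26 and 0.426 TPM in the same groups. For Slc38a3 they were St3gal3 (0.974), D4Wsu53e (0.938) and Tm7sf2 (0.928), and for Slc38a4 Gramd3 (0.965), Tnfaip8l1 (0.959) and Cdkn2aip (0.951). For Slc7a2 they were Scfd1 (0.962), Trappc6b (0.952) and Dennd1a (0.947), for Slc3a2 Arhgef19 (0.914), Wnt5b (0.913) and Gmppb (0.909), and for Slc43a1 Ppan (0.956), Gas8 (0.953) and Tut1 (0.953). The 3 closest genes of each of the 7 had an r of 0.909 or more. They were picked by r from the 10161 genes tested, over only 9 libraries, so a close match follows from the choice.

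The libraries were checked for other cells and for inflammation. In bulk liver a gene of 1 cell type can be lower because there are fewer such cells or because each holds less of its RNA, and these cannot be told apart. The summed TPM of 10 hepatocyte markers was 26470 to 30430 in PD-0332991 livers, 25770 to 29680 in aged livers and 29020 to 29960 in young livers, with overlapping ranges. Kidney tubule genes, checked because kidney is rich in Slc3a1, were 8 of 8 below 1 TPM in every library, and their sum reached at most 0.159 TPM. The sum of 10 Kupffer cell and macrophage markers was 98.8 to 106.9 TPM in PD-0332991 livers, 107.2 to 157.6 in aged livers and 113.5 to 181.1 in young livers. Every PD-0332991 sum thus lay below every aged one, narrowly, and below every young one. Of the 10 markers, 5 were called lower in PD-0332991 than in young livers (all genes 4.29%), and 0 were called against aged livers. The sum of 9 neutrophil markers, 5 of them below 1 TPM throughout, was 24.9 to 35.0 TPM in PD-0332991 livers, 9.99 to 26.7 in aged livers and 3.34 to 4.13 in young livers, lowest in young livers and overlapping between PD-0332991 and aged livers. All 3 neutrophil markers that could be tested were called higher in PD-0332991 than in young livers (all genes 2.59%). Sums for sinusoidal endothelium (70.6 to 85.0, 73.5 to 98.1 and 86.3 to 92.7 TPM in PD-0332991, aged and young livers) and stellate cells (91.9 to 135, 103 to 151 and 140 to 148 TPM) overlapped between aged livers and both other groups, while for both cell types every PD-0332991 sum lay below every young one. The same held for 8 cholangiocyte markers (12.3 to 17.8 TPM in PD-0332991 livers, 15.9 to 27.4 in aged livers and 22.0 to 25.2 in young livers) and for 10 lymphocyte markers (2.78 to 5.19, 2.00 to 9.59 and 5.80 to 7.86 TPM in the same groups). Of 3 tested cholangiocyte markers, 1 was called higher in aged than in young livers (all genes 0.65%). In that comparison 1 of 10 endothelial and 1 of 10 stellate markers were called lower (all genes 0.453%). Slc3a1 was also called in aged against young livers, where the sums of these 3 cell types overlapped and the neutrophil sums did not. Whether cell makeup bears on Slc3a1 was not tested. In PD-0332991 against young livers 1 of 10 hepatocyte and 1 of 10 stellate markers were called lower. The sum of 8 erythroid markers was 222 to 359, 291 to 787 and 343 to 369 TPM in PD-0332991, aged and young livers, with 0 of 6 tested called. Saa1, an acute phase gene of hepatocytes, was at 3099, 7204 and 2730 TPM in PD-0332991 livers, 6008, 222 and 123 TPM in aged livers and 38.3, 1482 and 52.3 TPM in young livers, with aged replicate 1 and young replicate 2 far above their groups. Every PD-0332991 library lay above every young one for Saa1. The same held for the summed TPM of 15 acute phase genes. It was 24450 to 37980 in PD-0332991 livers, 10320 to 36750 in aged livers and 9644 to 16400 in young livers. Of these 15 genes, 1 was called higher in PD-0332991 than in young livers (all genes 2.59%). In the other comparisons 0 were called. Without aged replicate 1 and young replicate 2, an alternative chosen after seeing the data, Slc3a1 was still called in aged against young livers. Slc38a2 was still called in PD-0332991 against aged livers (limma adjusted p = 0.0408). In aged against young livers Slc38a2 was not called (limma adjusted p = 0.152), with a log2 fold change of -0.76 beside -0.75 with all libraries. The aged libraries left, at 222 and 123 TPM of Saa1, lay below every PD-0332991 library. They also lay above the young libraries left, at 38.3 and 52.3 TPM. This alternative therefore cannot separate the drug or age from the acute phase. The part of inflammation and of cell makeup in the levels of the transporter genes was not tested.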

How the data were processed

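Liver RNA was measured in 9 libraries, 3 per group, with groups and replicate numbers taken from the labels. Per the labels' protocols, paired-end libraries were made with an Illumina TruSeq RNA kit. Per the submitters' processing notes, abundance was estimated with kallisto on mm10. The sources used here do not give its version, the annotation, the use of strand or how transcripts were summed per gene. For each library the authors deposited a table of TPM values by gene symbol (23444 rows, of which 4 with repeated symbols were left out). TPM keeps no depth, which is therefore unknown, and no counting intervals can be given. The listed values reached 53.1% to 57.6% of the full TPM scale.

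Tests used log2(TPM + 0.5), on which fold changes of low genes come out too small. Genes with at least 1 TPM in at least 3 libraries (10161) were fitted in 1 model of all 9 libraries with limma 3.58.1 (R 4.3.3; trend and robust options, group as the only term). Contrasts were tested two-sided with Benjamini-Hochberg adjustment over all genes tested, and an adjusted p under 0.05 was a call. At an unadjusted p under 0.05 there were 1854 genes in PD-0332991 against aged livers, 1523 in aged against young livers and 2524 in PD-0332991 against young livers. Before use the fit was run on simulated data with independent normal errors and known changes in the aged group only. The simulation held no outlying library, so it did not test how the fit handles such a library. A single value compared over 3 against 3 libraries cannot reach an exact permutation p below 0.1, so no such test is given. No 2 libraries held identical values. The 7 members and all gene lists (17 lists of 259 genes, of which 253 were found by symbol, 4 by an older synonym and 2 not at all) were chosen with earlier results of these data known. Named were all 7 members, every called gene of the transporter, amino acid response, sensing and enzyme lists up to 6 per comparison (cell type marker lists are given as sums and counts), and the 3 genes most correlated with each member, leaving out predicted and clone-named genes. Other genes are marked in the text as chosen after their values were seen. Gene positions are from GENCODE M21 (GRCm38) and promoters from RefSeq (GRCm38.p6). Replicate numbers were not taken to pair the libraries, as described with the alternatives.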

Additional observations from a re-analysis of the deposited data

How the results depend on the processing

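The number of the 7 genes called (1 in PD-0332991 against aged livers, 2 in aged against young livers, 1 in PD-0332991 against young livers) was 0 and 1 in the first 2 comparisons with no filter on low values, and again 0 and 1 when only the 2 groups compared were fitted. Leaving out 1 library gave 0 to 3 in PD-0332991 against aged livers and 1 to 5 in aged against young livers, with the highest counts without aged replicate 3. Leaving out aged replicate 1 and young replicate 2 together gave 1 in aged against young livers. PD-0332991 against young livers gave 1 under every setting. The call of Slc38a2 in PD-0332991 against aged livers was kept in 14 of 19 alternatives and in aged against young livers in 8 of 19. Slc38a4 in aged against young livers became a call with quantile normalization (-0.46, limma adjusted p = 0.043) and with array weights (-0.50, 0.0151). Differences near 0 changed sign. In PD-0332991 against aged livers these were Slc3a2 (0.086 with median-of-ratios scaling, 0.035 with quantile normalization, -0.12 to 0.0379 leaving out 1 library) and Slc3a1 (-0.0652 with array weights, -0.0981 to 0.26 leaving out 1 library). In PD-0332991 against young livers they were Slc38a3 (0.11 with median-of-ratios scaling, 0.0032 with array weights, 0.0286 without aged replicate 1 and young replicate 2, -0.0884 to 0.0369 leaving out 1 library), Slc7a2 (0.12 with median-of-ratios scaling, 0.0102 with quantile normalization, 0.0174 with array weights, 0.0261 without those 2 libraries, -0.14 to 0.13 leaving out 1 library) and Slc43a1 (-0.20 to 0.15 leaving out 1 library). The cause was not tested. Slc43a1 could not be tested with a minimum of 5 TPM. Over all genes, 147, 112 and 699 were called in PD-0332991 against aged, aged against young and PD-0332991 against young livers, and 60, 91 and 492 with the replicate block, which left the counts among the 7 genes at 1, 2 and 1. Deviations of libraries with the same number correlated at -0.22 to 0.166, so the numbers were not taken to pair libraries, and not every library correlated best with its own number. Between PD-0332991 and young libraries, same-numbered pairs correlated at 0.133, 0.0712 and 0.0763, and all other pairs were negative. Between aged and young libraries, same-numbered pairs correlated at -0.114, -0.22 and -0.162. A pairing of part of the libraries is therefore not excluded. Over all alternatives the counts ran from 7 to 392, 16 to 696 and 153 to 1354. The 392 and the 696 came from leaving out aged replicate 3. Median-of-ratios scaling moved the median log2 fold change of all genes from -0.0966 to 0.0186 in PD-0332991 against young livers and changed the split of higher against lower calls from 263 and 436 to 386 and 228 (308 and 310 with quantile normalization). In PD-0332991 against aged livers the split was 62 and 85, 119 and 55 with median-of-ratios scaling and 88 and 56 with quantile normalization. The depth is unknown, which leaves the precision of low genes such as Slc43a1 unknown beyond the spread of 3 libraries.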
